A study of Mus musculus with 6 samples.

Results

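The genes described here encode the machinery that copies DNA at the replication fork and rebuilds chromatin behind it. There were 33 genes, chosen by their function: the proteins that turn the licensed helicase into an active one, the polymerases, the sliding clamp and its loader, the enzymes that finish the lagging strand, the single-strand binding protein, fork protection factors and chromatin assembly factors. The choice was made with earlier results of these data known, and licensing factors and nucleotide enzymes were left out of the 33. Of these, 32 were measured by a probe set (a group of array probes summarised to 1 value) that carries a single gene symbol, out of 22180 genes so measured in all. Rfc4, a clamp loader subunit, shares its probe set with another gene and is not reported.

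The samples were C2C12 cells, an established mouse myoblast line, in which 3 arrays came from cells transfected with an siRNA pool against Htt, the huntingtin gene, and 3 from cells transfected with scramble siRNA. The labels call the treated group a knockout, while the protocol and design text speak of siRNA, so it is called Htt siRNA here. The hours between transfection and harvest and the growth stage are not stated, and nothing says that replicates were separate cultures, so p-values measure the spread between these arrays, which may be technical. Values are the deposited log2 expression values, and every difference is Htt siRNA minus scramble with its standard error, from limma fitted to all 22180 genes, with p-values adjusted by Benjamini-Hochberg over all of them and a threshold of 0.05. In bulk RNA, fewer replicating cells and less transcript per cell cannot be told apart.

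Replication starts when Cdc45 and the GINS complex join the loaded Mcm2-7 ring and Mcm10 helps to activate it. Polymerase alpha-primase lays down RNA-DNA primers, RFC loads the PCNA clamp at them, polymerase epsilon extends the leading strand and polymerase delta the lagging strand, and Fen1 and Lig1 join the fragments. RPA coats single-stranded DNA, Timeless, Tipin and Wdhd1 hold the moving parts together, and CAF-1 (Chaf1a, Chaf1b) and Uhrf1 restore nucleosomes and DNA methylation. Most of these genes are transcribed in cells that are about to enter S phase, under E2F factors, and myoblasts stop expressing them when they leave the cell cycle to differentiate.

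Htt was lower in all 3 treated arrays, at 45.2%, 44.4% and 50.3% of the scramble mean in replicates 1, 2 and 3, so by this measure replicate 2 was as strongly depleted as the others. The array of Htt siRNA replicate 2 stood apart from replicates 1 and 3 in the fork genes, as described below. The counts and medians of the gene lists are given with and without it. The plot of differences by gene shows both values for each of the 32. Because replicate 2 was singled out by these same values, p-values and counts without it are a description and not a test. The myoblast markers were present: all 6 of Myod1, Myf5, Cdh15, Des, Ncam1 and Msc lay above the median gene mean of 2.95, with a mean of 7.59 to 7.75 in the Htt siRNA arrays and 7.20 to 7.55 in the scramble arrays, and 3 of 6 (Myod1, Cdh15 and Ncam1) were higher at an unadjusted p under 0.05, where 5.72% of all genes were. Msc was on the other side at -0.40 ± 0.19, and without Htt siRNA replicate 2 the count was 1 higher and 1 lower. Endothelial (4 genes, mean 2.18 to 2.37 over the arrays) and adipocyte markers (4 genes, 2.33 to 2.62) had 0 members above that median. Macrophage markers had means of 2.73 to 2.87, and 2 of the 4 were above that median, Cd68 at 4.10 and Csf1r at 2.98, while Ptprc was at 2.12 and Adgre1 at 1.96. Of these, Cd68 was lower at an unadjusted p under 0.05 (-0.39 ± 0.14), and of the adipocyte markers Cidec was higher (0.52 ± 0.12). The 4 epithelial markers averaged 2.89 to 3.01 and the 4 neuronal markers 3.88 to 4.27, each list with 2 of 4 above the median (Epcam at 3.06 and Krt8 at 3.55, Rbfox3 at 3.47 and Tubb3 at 7.17) and 0 at an unadjusted p under 0.05. The part of these cell type markers in the results was not tested.

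All 32 measured fork and chromatin assembly genes had lower means after Htt siRNA, where 41.8% of all genes did. The differences ran from -1.17 for Pole2, the second subunit of polymerase epsilon, to -0.05 for Pold2, the regulatory subunit of polymerase delta. The median was -0.74, against 0.03 for all genes. At an unadjusted p under 0.05, 25 of the 32 were lower and 0 higher, where 5.14% of all genes were lower. A fold of 2 or more downwards was reached by 10 of the 32, where 0.338% of all genes reached it. After adjustment over all genes limma called 0 of the 32, and 0% of all 22180 genes, with adjusted p-values of the 32 between 0.303 and 0.874. The plot of fold changes of all genes shows the 32 in the left tail of the distribution.

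**Figure D1:**
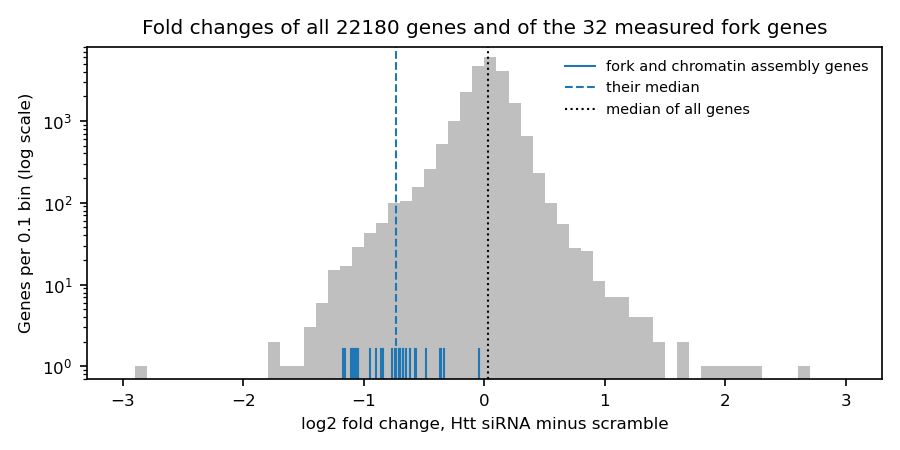
Grey bars count all 22180 genes by log2 fold change (x axis, Htt siRNA minus scramble; y axis on a log scale), and blue ticks mark the 32 measured fork and chromatin assembly genes. The ticks lie between -1.17 and -0.05, with their median at -0.74 (dashed line) and that of all genes at 0.03 (dotted line).

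The count of 25 depended on the arrays used. Leaving out Htt siRNA replicate 1 or 3 gave 9 or 10, where 3.1% and 3.16% of all genes were lower. Leaving out scramble replicate 2 or 3 gave 7 or 14, where 3.7% and 3.53% of all genes were lower. The count rose to 29 without scramble replicate 1, where 1075 of all 22180 genes were lower. Without Htt siRNA replicate 2, an array picked out by its values in these genes, the count was 31 (7.75% of all genes). Then 20 of the 32 passed the adjusted threshold, all lower, where 1.91% of all genes were lower at it. The fits that left out any other single array called 0 of the 32. The median difference was -0.54, -0.99 and -0.67 without Htt siRNA replicates 1, 2 and 3, and all 32 differences were negative whichever single array was left out.

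The arrays ranked in nearly the same way in most of the genes. Htt siRNA replicate 1 was the lowest of the 6 arrays in 22 genes and replicate 3 in 10. Scramble replicate 2 was the highest in 28 genes and scramble replicate 3 in 4. The lowest and highest of the 6 arrays were not counted over all genes. Within its own group, Htt siRNA replicate 2 was the highest in 31 of the 32 genes (35.7% of all genes) and scramble replicate 2 in 28 (25.3% of all genes). Replicates 1 and 3 of Htt siRNA were both below every scramble array in 31 of the 32, the exception being Pold2, where 13.9% of all genes had this order. Htt siRNA replicate 2 was below every scramble array in 12 genes, which are those whose groups did not overlap (5.91% of all genes were lower without overlap). In the other 20 it was within the range of the scramble arrays, and the share of all genes with this position was not counted. Against the scramble mean, the median gene stood at -1.15, -0.14 and -0.92 in Htt siRNA replicates 1, 2 and 3.

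**Figure D2:**
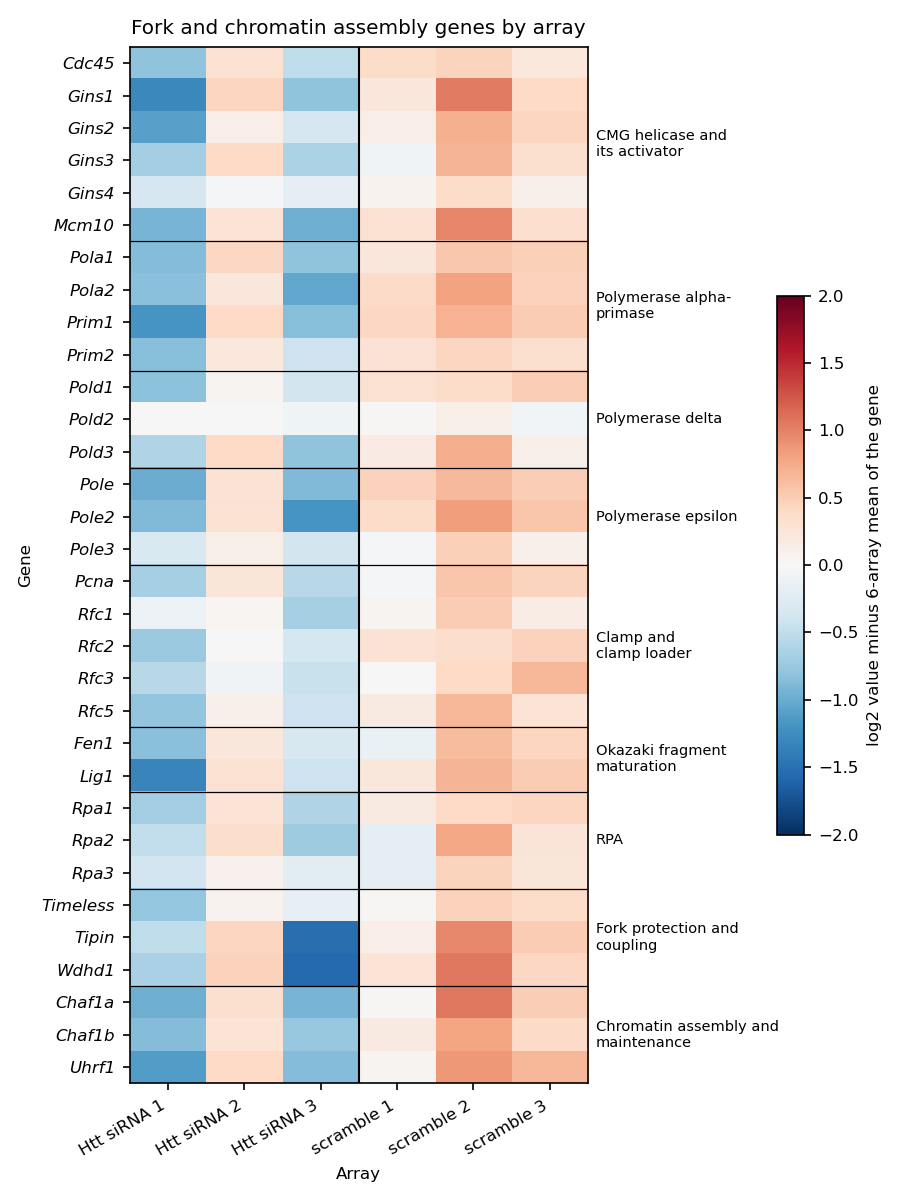
Each row is a gene, grouped by role, and each column an array; colour gives the log2 value minus the gene's mean over the 6 arrays, with blue lower and red higher. Htt siRNA replicates 1 and 3 are blue in nearly every row, Htt siRNA replicate 2 is pale to light red, scramble replicate 2 is the reddest, and the row of Pold2 is almost white.

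The spread within the Htt siRNA group was large. The median standard deviation of the 32 genes was 0.59 with Htt siRNA and 0.26 with scramble, while over all genes it was 0.13 and 0.11. The standard deviation was larger with Htt siRNA in 29 of the 32 genes, where 56.4% of all genes had this order. Over Htt siRNA replicates 1 and 3 alone the median standard deviation of the 32 was 0.17 (0.10 for all genes). The standard deviation then exceeded that of scramble in 12 of the 32, where 43.1% of all genes had this order. Fewer arrays entered this value than that of scramble. The standard errors in limma carry that spread, and with all 6 arrays a difference of more than 1 log2 unit did not pass the adjusted threshold.

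A list of 24 endoplasmic reticulum and amino acid stress genes was read in the same arrays. Relative to its mean over the 6 arrays it stood at 0.69, -1.05 and 0.76 in Htt siRNA replicates 1, 2 and 3 and at 0.83, -0.79 and -0.43 in scramble replicates 1, 2 and 3. The fork and chromatin assembly genes stood at -0.75, 0.23 and -0.65 and at 0.15, 0.64 and 0.38. In each group the arrays high in stress genes were those low in fork genes. Scramble replicate 1, with the highest stress level of the 6, had a fork level above both Htt siRNA replicates 1 and 3. With the stress level as a covariate in limma the median difference was -0.67. In that fit 31 of the 32 genes were lower at an unadjusted p under 0.05 (6.66% of all genes). Chaf1a and Uhrf1 passed the adjusted threshold (0.239% of all genes were called lower). The stress list was chosen with earlier results of these data known, and the part of stress in the fork genes was not tested.

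**Figure D3:**
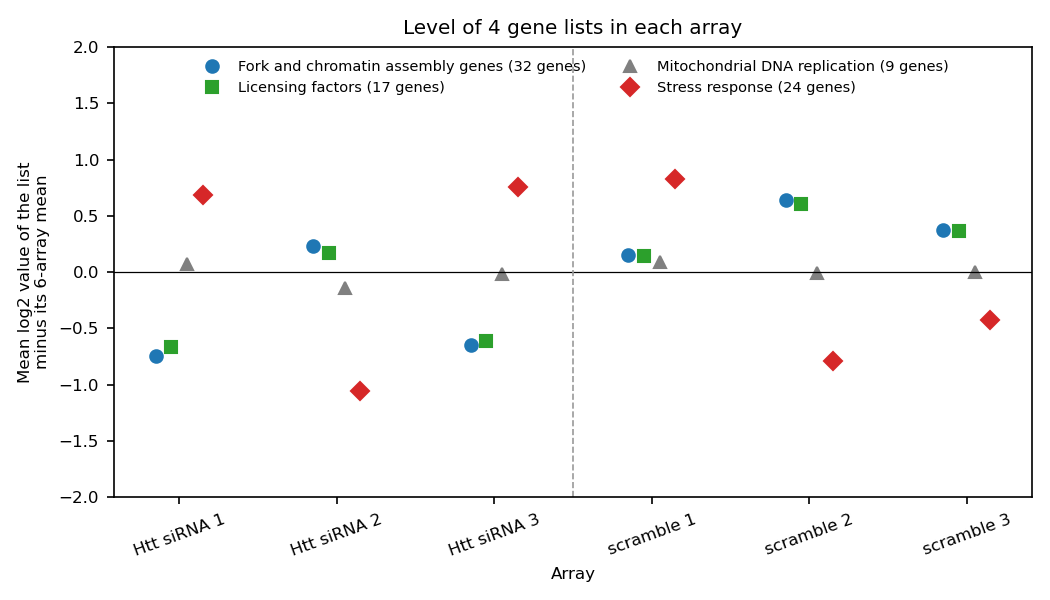
Points give the mean log2 value of 4 gene lists in each array (x axis) minus the list's mean over the 6 arrays (y axis). The 32 fork and chromatin assembly genes and the 17 licensing factors lie close together in every array, from -0.75 to 0.64 and from -0.66 to 0.60, while the stress genes span -1.05 to 0.83 and the 9 mitochondrial replication genes -0.14 to 0.09.

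Of the 6 genes that complete and activate the helicase, 5 were lower at an unadjusted p under 0.05 and 2 had groups that did not overlap. Mcm10, which helps the assembled helicase to start unwinding, measured 4.46, 5.67 and 4.42 with Htt siRNA and 5.70, 6.38 and 5.73 with scramble. All 3 treated arrays were below the lowest scramble array, the second of them by very little, and the difference was -1.09 ± 0.34 (2.13-fold lower, adjusted p = 0.387). Gins1, a core subunit of GINS, measured 3.36, 5.07 and 3.84 with Htt siRNA and 4.87, 5.68 and 5.04 with scramble. Here replicate 2 lay inside the scramble range while replicates 1 and 3 were more than 1 log2 unit below it, and the difference was -1.11 ± 0.42 (95% confidence interval -2.07 to -0.14).

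The other GINS subunits differed in how far they were lower. The values of Gins4 were 6.34, 6.66 and 6.50 with Htt siRNA and 6.74, 7.04 and 6.79 with scramble, a difference of -0.36 ± 0.12 with no overlap between the groups. Gins2 differed by -0.86 ± 0.29 and Gins3 by -0.62 ± 0.31, the latter with an interval of -1.33 to 0.09 that includes 0. Cdc45, the partner of GINS in the helicase, measured 5.08, 6.18 and 5.37 with Htt siRNA and 6.24, 6.32 and 6.09 with scramble. Its scramble arrays lay close together and replicate 2 of Htt siRNA was among them. The difference was -0.68 ± 0.25 with all arrays and -0.99 ± 0.13 without replicate 2.

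In polymerase alpha-primase all 4 subunits were lower at an unadjusted p under 0.05, and in 3 of them the groups did not overlap. The values of Pola2, the subunit that tethers the polymerase to its partners, were 6.18, 7.25 and 5.97 with Htt siRNA and 7.40, 7.81 and 7.47 with scramble. The difference was -1.10 ± 0.31 (2.14-fold lower, 95% confidence interval -1.81 to -0.38, adjusted p = 0.351). Prim1, the catalytic primase subunit, measured 5.87, 7.46 and 6.21 with Htt siRNA and 7.47, 7.75 and 7.57 with scramble. The scramble arrays differed among themselves by less than 0.3 there, replicate 2 of Htt siRNA was just below them, and the difference was -1.08 ± 0.36. Prim2, the large primase subunit, differed by -0.70 ± 0.24, and the catalytic polymerase subunit Pola1 by -0.84 ± 0.31. Without Htt siRNA replicate 2, the 4 differences were -1.25 ± 0.12 for Pola1, -1.48 ± 0.15 for Pola2, -1.55 ± 0.14 for Prim1 and -0.98 ± 0.14 for Prim2.

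The subunits of polymerase delta were not lower to the same degree. Pold1, the catalytic subunit, measured 4.03, 4.90 and 4.48 with Htt siRNA and 5.15, 5.21 and 5.34 with scramble, with no overlap and a difference of -0.76 ± 0.20 (95% confidence interval -1.23 to -0.30). Pold2, the regulatory subunit that links the catalytic subunit to the rest, measured 6.53, 6.52 and 6.44 with Htt siRNA and 6.54, 6.63 and 6.46 with scramble. Its groups overlapped in part, with scramble replicate 3 inside the range of the Htt siRNA arrays. The difference was -0.05 ± 0.09 with an interval of -0.25 to 0.15, which lies above that of Pold1. The spread of Pold2 was small in both groups (6.49 ± 0.05 with Htt siRNA and 6.54 ± 0.09 with scramble, SD, n = 3), so its interval leaves room only for a small difference. Pold3, the subunit that binds the clamp, measured 5.86, 6.86 and 5.65 with Htt siRNA and 6.63, 7.18 and 6.58 with scramble. Its replicates 1 and 3 were low and replicate 2 was not, and the difference was -0.68 ± 0.31 with an interval of -1.40 to 0.05.

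Polymerase epsilon showed a similar split. Pole, the catalytic subunit, measured 4.71, 5.99 and 4.82 with Htt siRNA and 6.17, 6.36 and 6.20 with scramble, and Pole2 measured 4.46, 5.64 and 4.17 with Htt siRNA and 5.71, 6.17 and 5.90 with scramble. In both genes all treated arrays were below all scramble arrays, with differences of -1.07 ± 0.31 for Pole (2.10-fold lower) and -1.17 ± 0.35 for Pole2 (2.25-fold lower). Pole3, a histone-fold subunit that also belongs to a chromatin remodelling complex, measured 6.65, 7.07 and 6.59 with Htt siRNA and 6.93, 7.43 and 7.05 with scramble. Its difference was -0.37 ± 0.17, with an interval of -0.77 to 0.03.

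Unequal change within a complex was compared for 4 pairs of subunits, chosen after their values were seen as the more and the less lowered, by the log2 ratio of the pair in each array. The ratio of Pold1 to Pold2 was -2.50, -1.62 and -1.96 with Htt siRNA and -1.38, -1.42 and -1.12 with scramble, without overlap, a shift of -0.72. That of Pole2 to Pole3 also did not overlap, with a shift of -0.80. The ratios of Gins1 to Gins4 (shift -0.75) and of Rpa1 to Rpa3 (shift -0.34) overlapped between the groups. Without Htt siRNA replicate 2 the 4 shifts were -0.92, -1.09, -1.16 and -0.52 in the same order. Because of how the pairs were chosen these ratios are a description, with no test.

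**Figure D4:**
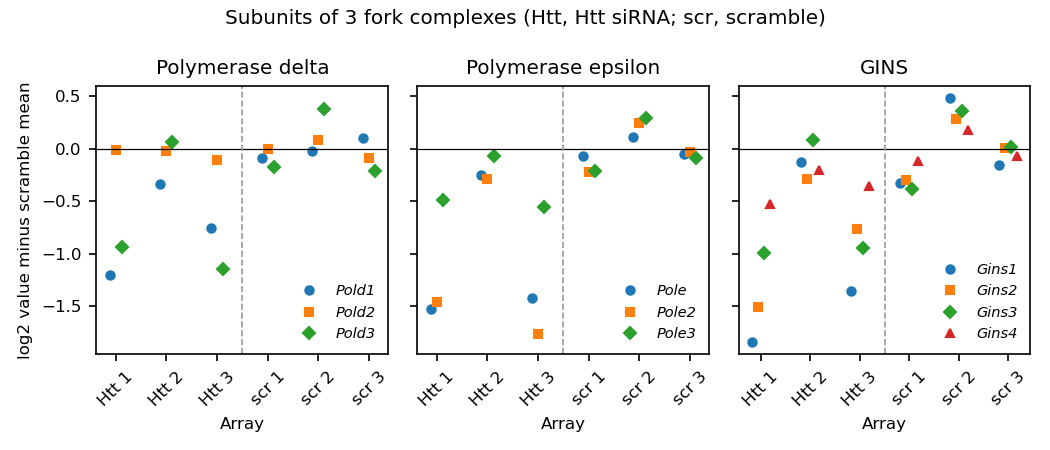
Points give each subunit's log2 value minus its scramble mean (y axis) in the 6 arrays (x axis) for polymerase delta, polymerase epsilon and GINS. Pold2 is at -0.10 in its lowest array, Pole3 and Gins4 reach -0.55 and -0.52, and the other subunits reach between -0.99 and -1.84 in their lowest array.

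The clamp and the measured clamp loader subunits were all lower at an unadjusted p under 0.05, 5 of 5, and 4 of them without overlap. Pcna, the clamp itself, measured 7.47, 8.39 and 7.58 with Htt siRNA and 8.11, 8.70 and 8.59 with scramble. Replicate 2 of Htt siRNA lay between scramble replicates 1 and 3, and the difference was -0.66 ± 0.26 (63.5% of the scramble level). Rfc2 had the smallest p of the 32 genes, with values of 5.34, 6.10 and 5.74 with Htt siRNA and 6.38, 6.43 and 6.55 with scramble. Its treated arrays were all below its scramble arrays and the difference was -0.73 ± 0.18 (95% confidence interval -1.14 to -0.32, adjusted p = 0.303). Rfc3, also without overlap, measured 4.39, 4.88 and 4.49 with Htt siRNA and 4.94, 5.34 and 5.60 with scramble, a difference of -0.71 ± 0.19, and Rfc5 differed by -0.74 ± 0.23. The large loader subunit Rfc1 had the least difference of the loader, -0.48 ± 0.20, from values of 5.93, 6.08 and 5.38 with Htt siRNA and 6.10, 6.56 and 6.19 with scramble, and here replicate 3 was the low array while replicate 1 was close to replicate 2.

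The enzymes that process and seal lagging strand fragments overlapped between the groups. Lig1, the DNA ligase of replication, measured 4.45, 6.07 and 5.36 with Htt siRNA and 5.997, 6.46 and 6.28 with scramble, a difference of -0.95 ± 0.36. Its replicate 1 was the lowest by a wide margin, 0.91 below replicate 3. Fen1, the flap endonuclease, measured 3.73, 4.79 and 4.26 with Htt siRNA and 4.44, 5.20 and 5.004 with scramble. Scramble replicate 1 was below Htt siRNA replicate 2 in this gene, and the difference was -0.62 ± 0.28 with an interval of -1.28 to 0.04.

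Among the RPA subunits, 1 of 3 was lower at an unadjusted p under 0.05. This was Rpa1, the large DNA-binding subunit, with values of 6.37, 7.34 and 6.47 with Htt siRNA and 7.25, 7.47 and 7.51 with scramble and a difference of -0.68 ± 0.24. Rpa2, the subunit that checkpoint kinases phosphorylate, measured 4.51, 5.34 and 4.29 with Htt siRNA and 4.82, 5.77 and 5.25 with scramble. Its scramble arrays were spread over almost 1 log2 unit and its difference was -0.57 ± 0.31, with an interval of -1.30 to 0.16. The small subunit Rpa3 had a difference of -0.34 ± 0.18, with an interval of -0.76 to 0.08.

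The fork protection genes held the widest gap between Htt siRNA replicates 1 and 3. Wdhd1, the hub that ties polymerase alpha to the helicase, measured 5.32, 6.42 and 4.41 with Htt siRNA and 6.23, 7.01 and 6.38 with scramble. Replicate 3 was 0.91 below replicate 1 and more than 1.8 below every scramble array, and the difference was -1.16 ± 0.46 (95% confidence interval -2.22 to -0.09). Tipin measured 4.30, 5.23 and 3.29 with Htt siRNA and 4.93, 5.76 and 5.31 with scramble, with replicate 3 again the lowest, by 1.01 below replicate 1, and a difference of -1.06 ± 0.44. Its binding partner Timeless had the reverse order, with values of 3.81, 4.66 and 4.43 with Htt siRNA and 4.61, 5.05 and 4.96 with scramble and a difference of -0.57 ± 0.22. Across the 32 genes replicate 3 was below replicate 1 in 10 and above it in 22, an order not counted over all genes.

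The 3 chromatin assembly and maintenance genes were lower at an unadjusted p under 0.05, all with overlapping groups. Chaf1a, the large subunit of the histone chaperone CAF-1, measured 3.68, 4.97 and 3.72 with Htt siRNA and 4.68, 5.71 and 5.14 with scramble. Its scramble arrays spanned 1.03, replicate 2 of Htt siRNA lay inside that range, and the difference was -1.05 ± 0.38 (2.07-fold lower). Its partner Chaf1b measured 4.65, 5.79 and 4.77 with Htt siRNA and 5.70, 6.31 and 5.91 with scramble, a difference of -0.90 ± 0.30. Uhrf1, which recognises hemimethylated DNA behind the fork and brings the maintenance methyltransferase to it, measured 5.93, 7.44 and 6.17 with Htt siRNA and 7.09, 7.90 and 7.70 with scramble. Uhrf1 differed by -1.05 ± 0.39 with all arrays and by -1.52 ± 0.23 without Htt siRNA replicate 2.

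**Figure D5:**
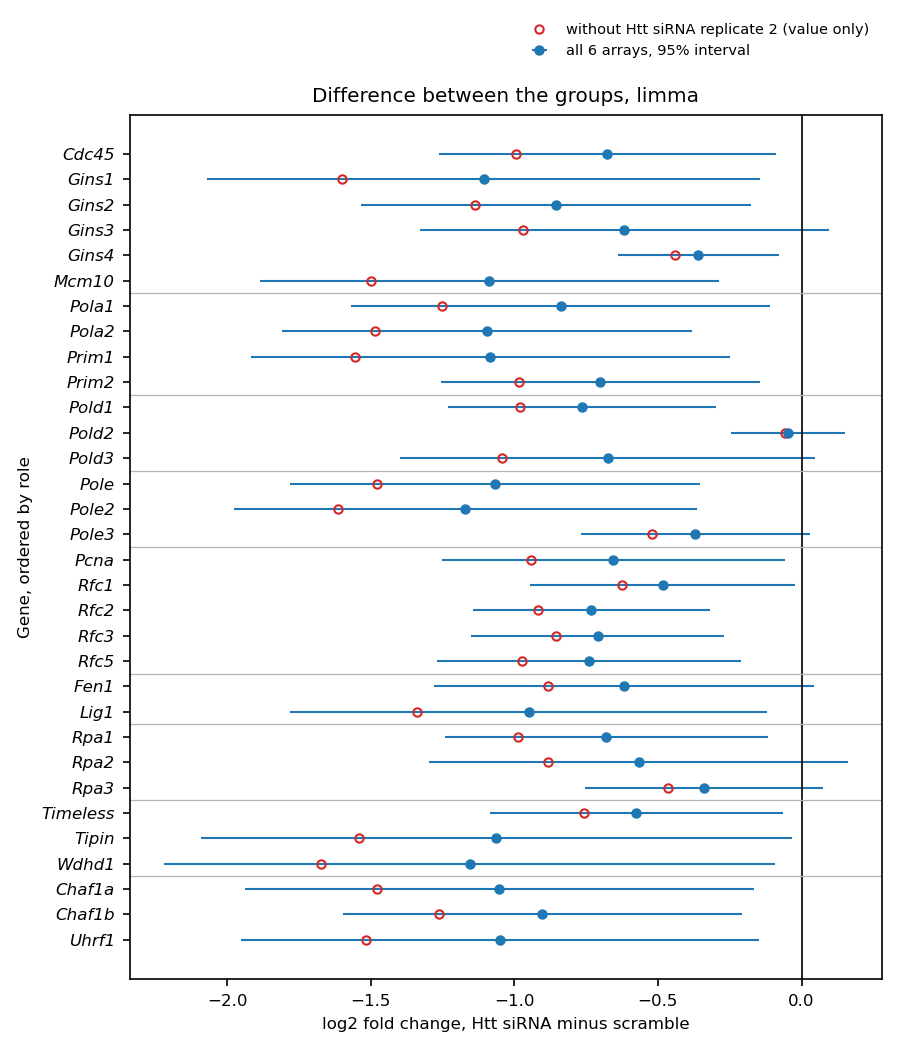
Filled points give the log2 fold change of each gene (x axis, Htt siRNA minus scramble) with its 95% confidence interval from limma, and open points the value without Htt siRNA replicate 2. In each row the open point lies to the left of the filled one, least so for Pold2 (-0.05 and -0.06), and 7 of the 32 intervals reach 0.

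The difference and the brightness of a gene were nearly uncorrelated. Across the 32 genes, which are not independent and share the same 6 arrays, the correlation between the difference and the scramble mean was 0.09, with scramble means from 4.87 to 8.47. All 32 lay above the median gene mean. Of the 32 genes, 4 had a further, dimmer probe set of their own. That of Rpa3 measured 4.92, 5.76 and 4.72 with Htt siRNA and 5.29, 5.67 and 5.33 with scramble, a difference of -0.30, close to the -0.34 of its brighter one. The further probe set of Fen1 gave -0.33, while those of Rpa1 (-0.21) and Pole (0.00) had means below 2.95 in both groups.

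Since the 32 genes were low in the same arrays, their promoters were searched for letters of the elements known from cell cycle genes. RefSeq (GRCm38.p6) gave promoters for 26 of the 33 listed genes, Rfc4 among them. The 250 bases before each start were read on both strands. The E2F-type letters TTTCCCGC, TTTGGCGC, TTTCGCGC or TTTGCCGC were found in 4 of the 26 (15.4%) and in 2.16% of the 27025 genes with a promoter. The letters TTTGAA of the CHR element were found in 4 of 26 (15.4%, all genes 18.3%). CCAAT, the NF-Y type, was found in 14 of 26 (53.8%, all genes 37.5%). Among the genes measured here that had a promoter, the shares were 2.70% for E2F-type letters, 16.1% for TTTGAA and 38.7% for CCAAT. The 4 E2F-type matches overlapped 0 matches of the other kinds. They are shown here as 60 bases on the gene's strand with the match, read on either strand, in capitals, because they hold the E2F-type letters found in this search.
Gins3: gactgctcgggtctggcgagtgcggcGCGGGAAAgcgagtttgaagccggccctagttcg
Pola1: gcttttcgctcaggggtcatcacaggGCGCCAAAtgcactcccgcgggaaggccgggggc
Rfc3: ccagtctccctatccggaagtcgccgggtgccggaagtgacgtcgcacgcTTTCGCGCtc
Uhrf1: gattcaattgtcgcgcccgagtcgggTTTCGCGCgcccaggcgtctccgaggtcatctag

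The stretches lie at chr8:95633492-95633551 on the plus strand for Gins3, chrX:93632260-93632319 on the minus strand for Pola1, chr5:151651209-151651268 on the minus strand for Rfc3 and chr17:56304102-56304161 on the plus strand for Uhrf1, where it precedes the downstream of 2 listed starts. The match begins 41, 138, 10 and 185 bases before the start in that order. The 4 genes had differences of -0.62, -0.84, -0.71 and -1.05, inside the range of the genes without a match, such as Pole2 (-1.17) and Pold2 (-0.05). A match describes letters in this window and was not tested as a binding site, and no match says only that these letters are not in this window.

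Other genes that act at the fork or around it, from lists set out by function with earlier results of these data known, are given for comparison. With all 6 arrays, 5.14% of all genes were lower and 5.72% higher at an unadjusted p under 0.05. Of 29 further fork and chromatin assembly genes, 15 were lower and 0 higher at an unadjusted p under 0.05, with a median of -0.61; these included Mms22l, a factor for stalled forks (-1.24 ± 0.29), the helicase gene Rtel1 (-0.60 ± 0.15) and Dscc1, of an alternative clamp loader (-1.10 ± 0.32). Of 17 licensing factors, 13 were lower and 0 higher (median -0.90), among them Cdc6, the helicase loader (-1.29 ± 0.33), Dbf4, the activator of the kinase that fires origins (-0.83 ± 0.22), and the helicase subunit Mcm6 (-1.07 ± 0.32). Of 9 nucleotide supply enzymes, 3 were lower and 0 higher (median -0.42): Tk1, a thymidine kinase (-1.36 ± 0.48), Dut, a dUTPase (-0.37 ± 0.14), and Rrm1, the large subunit of ribonucleotide reductase (-0.84 ± 0.33).

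These counts depended on the arrays as those of the 32 did. Of all genes, 7.75% were lower without Htt siRNA replicate 2 at an unadjusted p under 0.05, and 1.91% at the adjusted threshold. Without Htt siRNA replicate 2, 20 of the 29 further fork genes were lower at an unadjusted p under 0.05 (median -0.99), 13 of the 17 licensing factors (median -1.26) and 7 of the 9 nucleotide enzymes (median -0.68), and 13, 9 and 3 of them passed the adjusted threshold. Leaving out Htt siRNA replicate 1 or 3 gave 4 or 5 lower genes among the further fork genes, and leaving out scramble replicate 2 or 3 gave 4 or 9. The licensing factors lower in these fits numbered 4, 4, 5 and 8 in that order, and the nucleotide enzymes 0 in each of the 4. Of all genes, 3.1%, 3.16%, 3.7% and 3.53% were lower in the same fits. Without scramble replicate 1 the lower further fork genes, licensing factors and nucleotide enzymes numbered 16, 13 and 4. In that fit 1 nucleotide enzyme was higher, and of all 22180 genes 1075 were lower and 1200 higher.

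The polymerases and clamps that serve damaged DNA and the mitochondrial machinery stood nearer to 0. At an unadjusted p under 0.05, 5.14% of all genes were lower and 5.72% higher with all 6 arrays. Without Htt siRNA replicate 2, 7.75% of all genes were lower, and 1.91% at the adjusted threshold. Of 11 translesion and checkpoint clamp genes, 2 were lower and 0 higher (median -0.23), namely Rad18, the ligase that marks PCNA for translesion synthesis (-0.62 ± 0.17), and Rad1, of the checkpoint clamp (-0.36 ± 0.11). Of 9 genes of mitochondrial DNA replication, 0 were lower and 1 higher (median -0.07), Polg2, the accessory subunit of the mitochondrial polymerase (0.22 ± 0.09). Without Htt siRNA replicate 2, 5 of the 11 translesion and checkpoint clamp genes were lower at an unadjusted p under 0.05 (median -0.29), 1 of them at the adjusted threshold, and 0 of the 9 mitochondrial genes in either direction (median 0.00). With all 6 arrays limma's adjusted threshold was passed by 0 genes of these 5 lists, and the medians were not tested against each other. The stress list had 0 of 24 genes at an unadjusted p under 0.05 in either direction (median 0.25), with values of 1.02 ± 0.87 for Sdf2l1 and -1.27 ± 1.00 for Slc7a11. Without Htt siRNA replicate 2 its median was 0.81. In that fit 9 of the 24 were higher at an unadjusted p under 0.05 (7.8% of all genes) and 0 passed the adjusted threshold. Leaving out scramble replicate 1 gave a stress median of 0.83 with 0 genes at the unadjusted threshold, and leaving out scramble replicate 2 gave -0.06.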

How the data were processed

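Total RNA of 6 C2C12 samples was hybridised to 1-colour Affymetrix arrays. The authors deposited log2 values of 41345 probe sets in 1 table; the submitters' processing notes name RMA and the affy package, with no version or genome build. RMA's quantile step makes the arrays' distributions alike, so total RNA per cell is not visible, and weak signals are compressed. Array medians lay between 2.59 and 2.67 and pairs of arrays correlated at 0.981 to 0.991 across probe sets.

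Genes were named from the platform annotation (23521 probe sets with 1 symbol, 1814 with several, the other probe sets unnamed here; 23328 matched RefSeq by Entrez identifier, 0 symbols changed), and the probe set with the highest mean stood for a gene. Differences were fitted with limma 3.58.1 in R 4.3.3 (lmFit, eBayes, group only, two-sided, Benjamini-Hochberg over 22180 genes); the fit was tested on simulated data. The number of arrays limits the precision. The text names all members, Htt and, from each other list, up to 3 genes per direction with unadjusted p under 0.05 by smallest p or, with none, the 2 with the largest absolute difference above the median gene mean. The members, lists and alternatives were chosen with earlier results of these data known. Alternatives left out each array, filtered dim genes, centred or re-normalized arrays, weighted arrays, averaged probe sets, used a trended robust prior, blocked on replicate number or took the stress level as covariate. Promoters came from RefSeq; no protein sequence was used. Figures were drawn with matplotlib 3.10.9.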

Additional observations from a re-analysis of the deposited data

How the results depend on the processing

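All 32 differences stayed negative in every fit run, and the median lay between -0.99 and -0.54 with 1 array left out and between -0.82 and -0.67 in the other fits. Of these other fits, the replicate block, the trended robust prior and the filter on dim genes leave the differences themselves unchanged. The number lower at an unadjusted p under 0.05 was 7 to 31 with 1 array left out and 22 to 31 otherwise; the number lower at the adjusted threshold was 0 to 20 with 1 array left out, 20 being without Htt siRNA replicate 2, and otherwise 0 except for 2 with the stress covariate and 2 with the replicate block. The medians of the further fork genes, licensing factors, nucleotide enzymes and translesion genes stayed negative in every fit run. Leaving out Htt siRNA replicate 2 moved the median of the further fork genes from -0.61 to -0.99. That of the licensing factors went from -0.90 to -1.26. Both moves exceeded the scramble standard deviations of the list means (0.21 and 0.23). The Htt siRNA standard deviations (0.45 and 0.47) contain the array left out, so the moves were not judged by them. The mitochondrial median went from -0.07 to 0.00 without Htt siRNA replicate 2. The stress median went from 0.25 to -0.06 without scramble replicate 2 and to 0.83 without scramble replicate 1. Both groups carry replicate numbers 1 to 3, but the labels do not say that these pair the arrays, so they were not taken to. Deviations of same-numbered arrays from their group means correlated at 0.35, 0.36 and 0.01. Of the 6 arrays, 4 correlated best with the array of their own number in the other group, a hint from the data and not from the design. With the replicate block 98 genes passed the adjusted threshold, against 0 without it, among them Chaf1a and Mcm10. Centring the arrays on their medians moved the median of all genes from 0.03 to -0.03 and that of the 32 to -0.80. Signals that RMA compresses limit the size of differences in dim genes.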

Other observations

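Myog, the transcription factor that starts terminal differentiation, was chosen after its values were seen and set beside the fork genes array by array. It measured 7.73, 6.22 and 7.71 with Htt siRNA and 4.53, 3.97 and 5.11 with scramble. Htt siRNA replicate 2 was thus above every scramble array in Myog. The fork genes of this array lay within the scramble range in 20 of 32 cases, a share not counted over all genes. The difference in Myog was 2.68 ± 0.44 (adjusted p = 0.169 in limma). In Htt siRNA replicate 2, Htt was at 44.4% of the scramble mean, the lowest of the 3. How Myog, Htt and the fork genes relate was not tested.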
